A study of Mus musculus with 2 samples.

Results

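Iron-sulfur clusters are built in mitochondria, and the 8 genes described here encode core proteins of that process: Nfs1, Lyrm4, Iscu, Hscb, Glrx5, Isca1, Isca2 and Iba57. They were chosen by name, and each symbol was matched through the GENCODE M21 annotation to its gene identifier, without the version number, in the gene and transcript tables. All 8 were found among 43346 Ensembl gene rows, and the transcript tables held 23 of their transcripts. The RNA came from MEL, an immortalized mouse erythroleukemia line whose cells resemble red cell precursors and turn on hemoglobin genes in dimethyl sulfoxide (DMSO). Every sample was total RNA of cells that had received DMSO at 2% for 5 days, and the labels give a size range of 300 to 350. There were 2 libraries, labelled biological replicates 2 and 1, and both cite one biosample record, so part of the spread between them may be technical. Untreated cells were not analysed here, so the values describe treated cells of 1 line, and effects of DMSO cannot be told apart from what the line always does. In such bulk RNA, fewer cells of a type and less RNA per cell cannot be told apart.

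An iron-sulfur cluster is a small group of iron and sulfide ions that a protein holds through its cysteines, and enzymes of respiration, DNA synthesis and heme synthesis need one to work. A desulfurase takes sulfur from cysteine and places it on a scaffold protein, where a cluster forms with iron; a chaperone pair then releases the cluster, a glutaredoxin passes it on, and late-acting proteins turn it into the larger cubane type. Red cell precursors make much heme, and the last enzyme of heme synthesis, ferrochelatase, carries a cluster in mammals. Loss of GLRX5 or HSCB causes sideroblastic anemia in humans, in which iron collects in the mitochondria of red cell precursors.

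The coding sequence around the best known motif of each protein is shown to tell the members apart by what they do. The bases come from the leading transcript of each gene in GENCODE M21 on GRCm38, on the coding strand, and capitals mark the codons of the motif. In Nfs1 the capitals mark the loop with the catalytic cysteine, in Lyrm4 the LYR motif that names its family, and in Iscu the LPPVK motif that the chaperone binds. In Hscb they mark the HPD motif of the J domain, in Glrx5 the CGFS active site, in Isca1 and Isca2 the pair of cysteines near the C-terminal end, and in Iba57 the conserved cysteine motif of its family.
Nfs1: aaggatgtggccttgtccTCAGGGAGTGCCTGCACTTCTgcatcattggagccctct
Lyrm4: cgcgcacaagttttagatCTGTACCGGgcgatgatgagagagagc
Iscu: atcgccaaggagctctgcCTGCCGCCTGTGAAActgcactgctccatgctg
Hscb: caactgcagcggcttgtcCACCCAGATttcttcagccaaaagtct
Glrx5: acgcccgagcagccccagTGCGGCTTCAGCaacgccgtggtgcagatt
Isca1: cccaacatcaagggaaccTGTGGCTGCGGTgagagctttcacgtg
Isca2: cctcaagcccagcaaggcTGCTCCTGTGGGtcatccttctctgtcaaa
Iba57: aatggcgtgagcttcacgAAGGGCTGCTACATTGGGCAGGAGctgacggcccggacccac

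The Nfs1 window runs across the junction of exons 10 and 11 of 13 (chr2:156126372-156127036, minus strand, intron included), and its motif starts at codon 379 of 459. The Lyrm4 window lies in exon 1 of 3 (chr13:36117101-36117145, minus strand). The Iscu motif lies in exon 4 of 5, at codon 132 of 168, and its window reaches into exon 5 (chr5:113776804-113777837, plus strand, intron included). The Hscb window lies in exon 2 of 6 (chr5:110836310-110836354, minus strand). The Glrx5 motif lies in exon 1 of 2, at codon 63 of 152 (chr12:105032868-105032915, plus strand). In both Isca genes the motif lies in exon 4 of 4, close to the end of the protein: at codon 121 of 129 in Isca1 (chr13:59756858-59756902, minus strand) and at codon 144 of 154 in Isca2 (chr12:84774664-84774711, plus strand). The Iba57 window lies in exon 3 of 3 (chr11:59158529-59158588, minus strand).

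The libraries held 90856320 estimated counts in replicate 2 and 65109488 in replicate 1. Protein-coding genes took 12.9% of the summed TPM (a relative level per unit of transcript length) in replicate 2 and 13.5% in replicate 1, so 1 TPM marks a higher mRNA level than it would among mRNA only. Red cell markers fit the label of the line: all 7 checked were at or above 1 TPM in both libraries, with the alpha globin gene Hba-a1 the highest, and their TPM summed to 7198 in replicate 2 and 3502 in replicate 1. Of 11 markers of other cells, 2 reached 1 TPM in both libraries, the platelet gene Pf4 and Itga2b, and the 11 summed to 44.0 TPM in replicate 2 and 45.5 TPM in replicate 1. The defining marker Epcam of epithelium had 0 counts in both, and a count of 0 leaves room for 3 counts, or 0.0330 CPM in replicate 2 and 0.0461 CPM in replicate 1.

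All 8 assembly genes were expressed, and Glrx5 stood above the others. Each was at or above 1 TPM in both libraries, a level that 58.7% of 13628 protein-coding genes with reads reached. The median of the 8 was 6.44 TPM over the library means, against 1.89 TPM for those protein-coding genes. The members together summed to 90.5 TPM in replicate 2 and 89.4 TPM in replicate 1, and Glrx5 alone held 53.0% of that sum in replicate 2 and 45.3% in replicate 1. The levels spanned a wide range for proteins that act in 1 pathway: Glrx5 was at 23.5 ± 6.45 times the TPM of Lyrm4 (SD, n = 2).

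**Figure D1:**
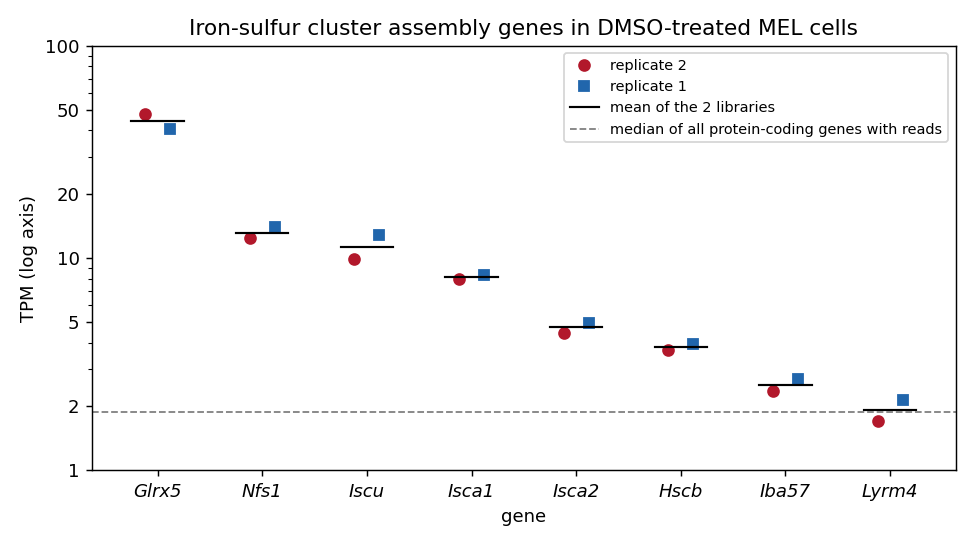
Levels of the 8 iron-sulfur cluster assembly genes in TPM (log axis) in replicate 2 (circles) and replicate 1 (squares), with the mean of both as a bar and the median of protein-coding genes with reads, 1.89 TPM, as a dashed line. Glrx5 stood alone at 48.0 TPM in replicate 2 and 40.5 TPM in replicate 1, and Lyrm4, with 1.71 TPM in replicate 2 and 2.14 TPM in replicate 1, lay on either side of the dashed line.

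The desulfurase and its scaffold came next in level, while the small subunit that holds the complex together was the lowest member. Nfs1 (ENSMUSG00000027618.13, chromosome 2, 156123639 to 156144186, minus strand), the cysteine desulfurase that supplies the sulfur, had 12.4 TPM in replicate 2 and 14.0 TPM in replicate 1. Iscu (ENSMUSG00000025825.8, chromosome 5, 113772748 to 113778288, plus strand), the scaffold on which the cluster forms, had 9.86 TPM in replicate 2 and 12.8 TPM in replicate 1. The ranges of Nfs1 and Iscu overlapped, and Nfs1 was at 1.17 ± 0.120 times the TPM of Iscu (SD, n = 2), above 1 in each library (1.26 in replicate 2 and 1.09 in replicate 1). Lyrm4 (ENSMUSG00000046573.6, chromosome 13, 35978395 to 36117526, minus strand), which encodes ISD11, the protein that stabilizes the desulfurase, had 1.71 TPM in replicate 2 and 2.14 TPM in replicate 1. Nfs1 was at 6.89 ± 0.523 times and Iscu at 5.88 ± 0.155 times the TPM of Lyrm4, so Lyrm4 lay below its partners in both libraries by far more than the spread. Its length bears on that level: the authors' tables gave the Lyrm4 transcript 1515 nt, and GENCODE M21 gives it 2086 nt.

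Hscb and Glrx5 carry the cluster from the scaffold to its users, and they lay far apart in level, Glrx5 first and Hscb 6th among the 8. Hscb (ENSMUSG00000043510.8, chromosome 5, 110829070 to 110839777, minus strand), the co-chaperone that brings the loaded scaffold to its Hsp70 partner, had 3.70 TPM in replicate 2 and 3.94 TPM in replicate 1. Glrx5 (ENSMUSG00000021102.3, chromosome 12, 105032688 to 105042906, plus strand), the glutaredoxin that receives the cluster, had 48.0 TPM in replicate 2 and 40.5 TPM in replicate 1. Glrx5 was above Nfs1, the next member, by a ratio of 3.86 in replicate 2 and 2.90 in replicate 1, and the ranges of the 2 genes did not overlap. It ranked 345 of the 13628 protein-coding genes, above 97.5% of them, while Hscb was above 67.0%. The length on which the Glrx5 level rests is that of the authors' annotation: 930 nt in the tables, where GENCODE M21 extends the transcript to 2925 nt, 3.15 times as long. Of 7953 leading transcripts compared in this way, 72.7% had the same length and 1.37% were at least 2-fold longer in M21, and the effect on the TPM of Glrx5 was not tested.

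The late-acting genes, which serve the cubane clusters of enzymes such as lipoate synthase and mitochondrial aconitase, lay in a fixed order. Isca1 (ENSMUSG00000044792.6, chromosome 13, 59755409 to 59769810, minus strand), an A-type cluster protein, had 7.99 TPM in replicate 2 and 8.36 TPM in replicate 1. Isca2 (ENSMUSG00000021241.6, chromosome 12, 84773251 to 84775088, plus strand), its A-type partner, had 4.45 TPM in replicate 2 and 4.97 TPM in replicate 1. Iba57 (ENSMUSG00000049287.5, chromosome 11, 59155369 to 59163739, minus strand), the folate-binding family protein that acts with both, had 2.37 TPM in replicate 2 and 2.69 TPM in replicate 1. None of the 3 ranges overlapped another. Isca1 was at 1.74 ± 0.0802 times the TPM of Isca2, and Isca2 was at 1.86 ± 0.0213 times that of Iba57 (SD, n = 2).

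Both libraries gave the same order of the 8 genes: Glrx5, Nfs1, Iscu, Isca1, Isca2, Hscb, Iba57 and Lyrm4. Of the 7 neighbouring pairs in this order, only Nfs1 and Iscu had ranges that overlapped. The closest pair without overlap was Isca2 and Hscb, with Isca2 at 1.23 ± 0.0415 times the TPM of Hscb (SD, n = 2). Lyrm4 was above 50.4% of protein-coding genes with reads and Iba57 above 56.6%, so the lowest members lay near the middle of all such genes. Isca2 was above 72.0%, Isca1 above 84.1%, Iscu above 88.8% and Nfs1 above 90.5%.

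By TMM-scaled counts the difference between the libraries was largest for Glrx5, but by TPM Iscu, with a log2 ratio of -0.38, and Lyrm4, with -0.32, differed more than Glrx5, with 0.24. By TPM the median of protein-coding genes at or above 1 TPM in both libraries was itself at -0.26. Relative to that median Glrx5 lay farthest of the members, at 0.50, against -0.12 for Iscu and -0.07 for Lyrm4. Glrx5 had 14785 estimated counts in replicate 2 and 7580 in replicate 1, and after scaling by the trimmed mean of M values (TMM) the ratio of replicate 2 to replicate 1 was 1.43-fold, or 0.51 on the log2 scale (95% exact interval 0.47 to 0.55, counting error only). Its adjusted p was 1.43e-143 in a two-sided exact binomial test of the rounded counts, with Benjamini-Hochberg adjustment over 15275 genes. This log2 ratio was above that of 93.8% of 8003 expressed protein-coding genes, those at or above 1 TPM in both libraries. The other members had log2 ratios from -0.11 for Iscu to 0.20 for Isca1. Such a test sets the reads of one library against those of the other and says nothing of conditions.

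A gene was called different at an adjusted p under 0.05 and a ratio of 2-fold or more, and 0 of the 8 members passed, against 6.49% of all genes tested (2.43% higher and 4.07% lower in replicate 2). The count was also 0 with DESeq2 size factors, total counts, either other count minimum, posterior mean counts or a threshold of 1.5-fold. At an unadjusted p under 0.05 in the same exact binomial test, 6 of the 8 differed, and the same number did at an adjusted p under 0.05 alone, against 62.0% of all genes tested. By TMM-scaled counts 5 were higher in replicate 2, namely Glrx5, Nfs1, Isca1, Hscb and Iba57, and 1 was lower, Iscu. By TPM 4 of these 5, all but Glrx5, were lower in replicate 2. On that scale the median log2 ratio of the 8003 expressed protein-coding genes was itself -0.26, and these 4 lay above it. By TMM-scaled counts 31.5% of all genes tested were higher in replicate 2 and 30.5% lower at an adjusted p under 0.05. Nothing is read from the members' count beyond that background.

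After TMM scaling, the ratios of the other 7 members were closer to 0. Iscu had 3120 estimated counts in replicate 2 and 2473 in replicate 1, a log2 ratio of -0.11 (95% exact interval -0.19 to -0.04) with an adjusted p of 0.00636 in the exact test. Nfs1 had 9049 counts in replicate 2 and 6037 in replicate 1, a log2 ratio of 0.13 (0.09 to 0.18). Isca1 had 5774 counts in replicate 2 and 3682 in replicate 1, a log2 ratio of 0.20 (0.14 to 0.26). On this scale the exact intervals of these 3 genes did not reach that of Glrx5. Iba57 had 3510 counts in replicate 2 and 2371 in replicate 1, a log2 ratio of 0.12 (0.04 to 0.19). Hscb had 942 counts in replicate 2 and 612 in replicate 1, a log2 ratio of 0.17 (0.02 to 0.32), and its adjusted p in the exact test was 0.0370 with TMM and 0.0920 with total counts. With TMM both Iba57 and Hscb were on the upper side of 0, with intervals that came close to it. Isca2 had 1261 counts in replicate 2 and 856 in replicate 1, a log2 ratio of 0.11 (-0.02 to 0.24) with an adjusted p of 0.132 in the exact test. Lyrm4 had 927 counts in replicate 2 and 702 in replicate 1, a log2 ratio of -0.05 (-0.19 to 0.09) with an adjusted p of 0.575 in the exact test. For these 2 genes the intervals include 0, so no difference was detectable at this depth.

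The scale decides the sign of most of these ratios. Each member lay on the same side of the median of other genes by TMM-scaled counts and by TPM. Both scales use the same reads, so that likeness is no separate support. Over the 8003 expressed protein-coding genes the median log2 ratio of replicate 2 to replicate 1 was 0.04 by TMM-scaled counts, -0.26 by TPM and -0.20 by TPM rescaled over protein-coding genes. Relative to that median, 6 members were above it and 2, Iscu and Lyrm4, below it both by TMM-scaled counts and by TPM. The rescaled TPM differs from TPM by 1 constant and gives the same distances. By TMM-scaled counts the exact intervals of Lyrm4, Isca2, Hscb and Iba57 include the median, so the side of these genes is not settled. Glrx5 lay 0.47 above the median by TMM-scaled counts and 0.50 above it by TPM. The median over the members was 0.13 by TMM-scaled counts, against -0.0037 over all genes tested, and the middle part of the expressed protein-coding genes, between their quartiles, ran from -0.16 to 0.24. By TMM-scaled counts all 7 red cell markers were also higher in replicate 2 at an adjusted p under 0.05, with log2 ratios from 0.18 to 1.78 and a median of 1.15. Of these, 4 were called, among them Alas2, Hbb-bs and Hba-a1, while Gata1, Epor and Klf1 had lower ratios than Glrx5, and by TPM Epor and Klf1 were lower in replicate 2. Their part in the Glrx5 difference was not tested.

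**Figure D2:**
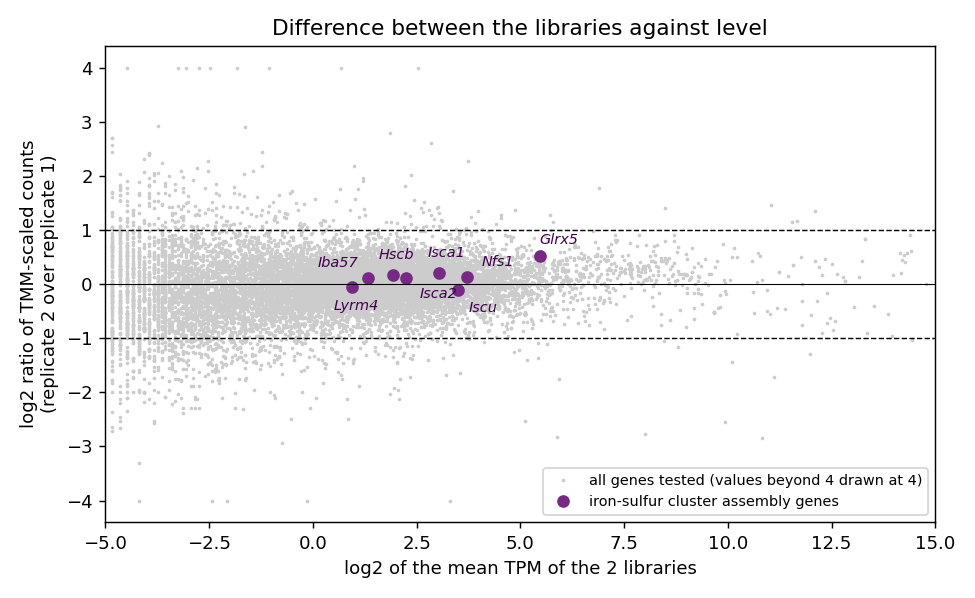
Log2 ratio of TMM-scaled counts, replicate 2 over replicate 1, against the log2 of the mean TPM for all genes tested (grey) and the 8 assembly genes (purple), with dashed lines at 2-fold in either direction. All 8 lie between the dashed lines, 7 of them between -0.11 and 0.20, and Glrx5 at 0.51.

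Each member was read almost wholly as 1 transcript. The leading transcript was the same in both libraries for all 5 members with several transcripts in the tables, as it was for 92.9% of 6058 expressed protein-coding genes with several transcripts. It held 92.8% of the TPM of Nfs1 in replicate 2 and 89.0% in replicate 1, and 90.1% of the TPM of Iscu in replicate 2 and 89.0% in replicate 1. It held 97.9% of Hscb in replicate 2 and 98.3% in replicate 1, 96.4% of Isca1 in replicate 2 and 93.6% in replicate 1, and 94.8% of Iba57 in replicate 2 and 93.3% in replicate 1. The median of the 5 means was 94.0%, against 66.5% over the 6058 genes, of which 22.1% had a leading transcript at 88% or more. Lyrm4, Glrx5 and Isca2 have 1 transcript each in the authors' tables, while GENCODE M21 lists 1, 3 and 9. Transcripts annotated as protein-coding held 98.7% of the members' TPM in replicate 2 and 98.1% in replicate 1. That sum includes Lyrm4, Glrx5 and Isca2, whose only transcript in the authors' tables is protein-coding, so their share was fixed by the annotation. For the 5 members with several transcripts the median share was 96.3%, against 87.3% over the 6058 genes.

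**Figure D3:**
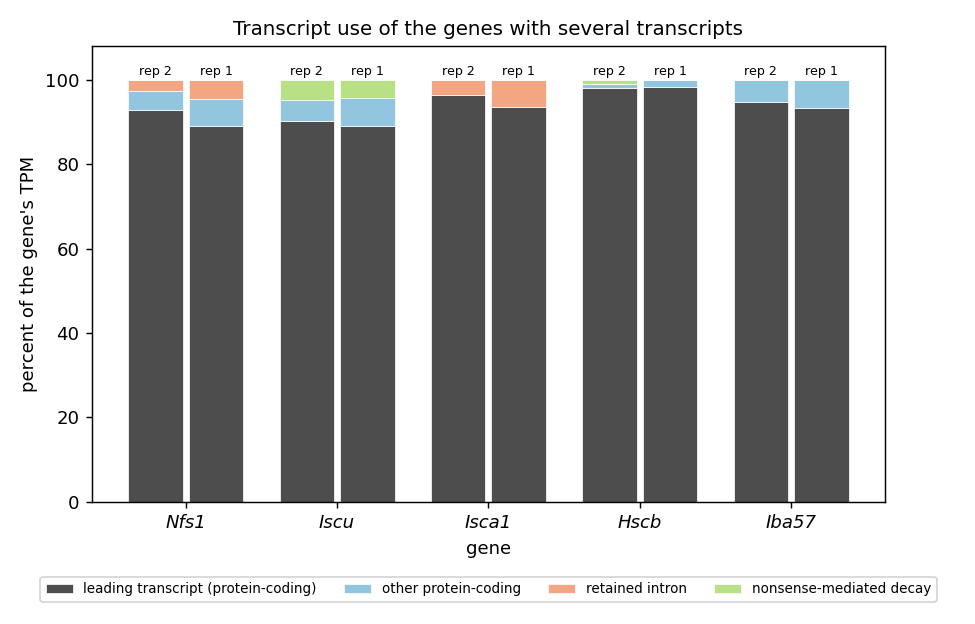
Share of each gene's TPM, in percent, held by the leading transcript and by other transcript types in replicate 2 (left bar of each pair) and replicate 1 (right bar) for the 5 members with several transcripts. The leading transcript takes from 89.0% to 98.3% of each bar, and the retained-intron share of Nfs1 and Isca1 is lower in replicate 2.

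The minor transcripts of Nfs1 and Iscu would encode other proteins, and the place where they part from the leading one is shown here. Capitals mark the coding bases after the last base that the pair shares, on GENCODE M21 transcripts.
Nfs1-201: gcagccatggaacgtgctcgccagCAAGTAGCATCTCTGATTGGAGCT
Nfs1-202: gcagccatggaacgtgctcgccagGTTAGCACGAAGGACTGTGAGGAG
Iscu-201: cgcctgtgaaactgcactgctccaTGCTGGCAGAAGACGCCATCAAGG
Iscu-203: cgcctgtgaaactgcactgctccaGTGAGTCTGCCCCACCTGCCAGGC

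Nfs1-202 shares 110 codons with Nfs1-201 and ends after 148, ahead of the loop with the catalytic cysteine printed above. It reads on into the intron past chromosome 2 position 156142126, where Nfs1-201 splices to exon 4. It held 4.49% of the TPM of Nfs1 in replicate 2 and 6.30% in replicate 1, with 122 estimated counts in replicate 2 and 118 in replicate 1. Iscu-203 shares 140 codons with Iscu-201, the LPPVK motif included, and then reads past position 113776849 of chromosome 5 to a total of 209 codons, where Iscu-201 splices to exon 5 and ends at 168. It held 3.13% of the TPM of Iscu in replicate 2 and 3.47% in replicate 1. In both libraries these forms were a small part of their gene, and reads of unspliced RNA across the same exon border cannot be told apart from them in these tables.

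Transcripts annotated with a retained intron had a lower share in replicate 2. Nfs1-203 held 2.70% of the TPM of Nfs1 in replicate 2 and 4.67% in replicate 1, with a log2 ratio of -0.68 (95% exact interval -0.96 to -0.40) and an adjusted p of 3.35e-06 in the exact binomial test over 43156 transcripts. Isca1-202 held 3.58% of the TPM of Isca1 in replicate 2 and 6.36% in replicate 1, with a log2 ratio of -0.61 and an adjusted p of 1.38e-06 in the same exact test. The direction was that of most genes: of 3647 expressed protein-coding genes with TPM in such transcripts, 73.1% had a lower share in replicate 2, with a median of 10.6% in replicate 2 and 12.7% in replicate 1. Of the transcripts tested, 18.2% were called at an adjusted p under 0.05 and 2-fold. Of the members' 23 transcripts, not all of which were tested, 2 were called, both of Iscu and both annotated for nonsense-mediated decay. Nothing is read from that count beyond the background. Iscu-204 had 31.1 estimated counts in replicate 2 and 64.9 in replicate 1, and Iscu-205 had 44.9 in replicate 2 and 8.86 in replicate 1. They moved in opposite directions at low counts, and the authors' posterior SD for Iscu-205 was 16.5 counts in replicate 2 and 17.9 in replicate 1, above its count in replicate 1. Iscu-205 held 3.46% of the TPM of Iscu in replicate 2 and 0.86% in replicate 1. By posterior mean TPM the gap was smaller, with 3.58% in replicate 2 and 2.61% in replicate 1.

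Some reads of the members could belong to neighbours, since the strand setting of the counting is not given in the sources used here. Exons of Nfs1 overlap those of Romo1, on the opposite strand, by 148 bases, and Romo1 stood at 61.0 TPM in replicate 2 and 72.9 TPM in replicate 1. They also overlap Gm28036, a protein-coding gene on the same strand, by 256 bases, and that gene had 2.55 TPM in replicate 2 and 3.67 TPM in replicate 1. Lyrm4 shares 115 exon bases with Fars2 on the opposite strand, at 2.57 TPM in replicate 2 and 2.80 TPM in replicate 1. Isca1 shares 314 exon bases with its antisense gene Etohd2, at 0.17 TPM in replicate 2 and 0.23 TPM in replicate 1. The authors' posterior SD of the count was at most 0.247% of the count for every member in both libraries.

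The other mitochondrial genes of the pathway were expressed as well and set the members in context. Of 11 mitochondrial partners, 10 were at or above 1 TPM in both libraries and 0 were called different by the exact binomial test, against 6.49% of all genes tested. The highest was Hspa9, the Hsp70 chaperone that HSCB works with, with 28.0 TPM in replicate 2 and 37.7 TPM in replicate 1, and it was at 8.56 ± 1.41 times the TPM of Hscb (SD, n = 2). The lowest was Nubpl, an assembly factor of respiratory complex I, with 0.46 TPM in replicate 2 and 0.63 TPM in replicate 1. Ndufab1, the acyl carrier protein that binds LYRM4, was at 8.97 ± 1.05 times the TPM of Lyrm4. At an unadjusted p under 0.05, 9 of the 11 differed, as did 9866 of all 15275 genes tested. At an adjusted p under 0.05 alone, 2 partners were higher and 7 lower in replicate 2, against 31.5% higher and 30.5% lower over all genes, and their median log2 ratio was -0.14 by TMM-scaled counts.

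A further list held 5 genes of mitochondrial iron import, of export and of related functions. All 5 were at or above 1 TPM in both libraries, and 0 were called by the exact binomial test, against 6.49% of all genes tested. At an unadjusted p under 0.05, 4 of the 5 differed, as did 9866 of 15275 genes. The highest was Abcb10, a mitochondrial transporter needed for hemoglobin synthesis, with 32.7 TPM in replicate 2 and 21.6 TPM in replicate 1 and a log2 ratio of 0.88. Slc25a37, the mitoferrin that carries iron into mitochondria of red cell precursors, had 6.72 TPM in replicate 2 and 5.66 TPM in replicate 1, and its log2 ratio of 0.49 was close to the 0.51 of Glrx5. Gfer, a sulfhydryl oxidase of the intermembrane space, went the other way, with 3.54 TPM in replicate 2 and 5.59 TPM in replicate 1 and a log2 ratio of -0.38. The TPM of Slc25a37 was 0.140 times that of Glrx5 in each library.

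All 15 mitochondrial proteins on the list that carry a cluster were at or above 1 TPM in both libraries. The highest was Ndufs7, a subunit of respiratory complex I, with 43.7 TPM in replicate 2 and 48.8 TPM in replicate 1, a level like that of Glrx5. The lowest was Cisd3, of the mitoNEET family, with 1.80 TPM in replicate 2 and 1.13 TPM in replicate 1. Fech, the ferrochelatase that completes heme, was the only one of the 15 called, against 6.49% of all genes tested. Fech had 27.2 TPM in replicate 2 and 15.2 TPM in replicate 1 and a log2 ratio of 1.12 (95% exact interval 1.08 to 1.15). It was at 0.471 ± 0.135 times the TPM of Glrx5 (SD, n = 2). By adjusted p alone 9 of the 15 were higher and 3 lower in replicate 2, with a median log2 ratio of 0.16 by TMM-scaled counts. These counts include the one called, and over all genes tested 31.5% were higher and 30.5% lower by the same rule.

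**Figure D4:**
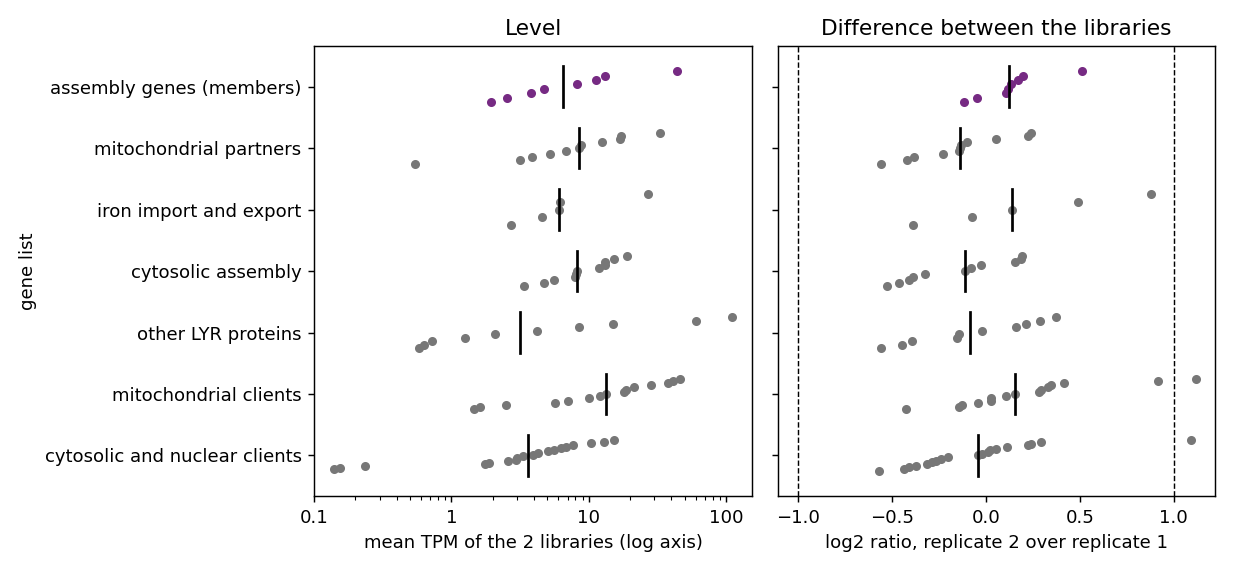
Mean TPM (left, log axis) and log2 ratio of replicate 2 over replicate 1 by TMM-scaled counts (right) for each gene of the assembly genes (purple) and 6 related lists (grey), with the median of each list as a vertical bar and 2-fold as dashed lines. The assembly genes have a median of 6.44 TPM and a median log2 ratio of 0.13, and Glrx5 is the point farthest to the right among them in both panels.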

How the data were processed

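Total RNA-seq of DMSO-treated MEL cells was analysed in 2 libraries of 1 group. The authors used mm10 and GENCODE M4, per the deposited readme files, while aligner and quantification program were not given in the sources used here. The authors' tables hold, per the file headers, estimated counts, TPM, FPKM, posterior mean counts with their SD, and, for transcripts, the percent of the gene's TPM. Deposited FPKM served only as an alternative. Gene names, types and GRCm38 coordinates (1-based) came from GENCODE M21, which 42462 of 43346 Ensembl rows matched.

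Estimated counts were rounded and scaled by TMM (edgeR 4.0.16, R 4.3.3). Each gene that reached 10 counts in either library had an exact two-sided binomial test (scipy 1.17.1), with Benjamini-Hochberg adjustment over all genes and intervals at 95% (Clopper-Pearson). Log2 ratios add 0.5 to TMM-scaled counts. Without molecular identifiers, reads are not independent molecules, so intervals and floors hold counting error alone. With 1 group, no conditions were compared. The scripts were tested on simulated libraries that held counting error only. That test could not show how the exact test behaves under the wider spread between the real libraries. Between the libraries, chi-square per degree of freedom over genes was 258, so they were counted as 2 samples.

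The members and lists were chosen with earlier results of these data known. By rule the text names every member, and of each other list the highest and lowest gene by mean TPM and those called; values of some list genes are not reported here singly. Ndufab1, Slc25a37, Gfer, Gata1, Epor and Klf1 were named after their values were seen. Alternatives were DESeq2 1.42.0 size factors, total counts, other count minimums, pseudocounts and thresholds, posterior means, FPKM, rescaled TPM and each library left out. The transcript test and ratios on TPM were added after seeing the data.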

Additional observations from a re-analysis of the deposited data

How the results depend on the processing

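The number of members called was 0 under the 6 alternatives run for it, and the 5 members with several transcripts had the same leading transcript under both transcript alternatives. With a threshold of 5 TPM in both libraries 4 members remained, and 0.5 TPM, FPKM or posterior mean TPM kept 8. After TPM was rescaled over protein-coding genes, the median of the members was 48.7 TPM. Leaving out each library gave 8 to 8 members at 1 TPM or more, a median of 6.22 to 6.67 TPM and 98.1% to 98.7% of TPM in protein-coding transcripts.

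The sign of most ratios depended on the scale, added after seeing the data. By TPM the median log2 ratio of the members was -0.16, with Nfs1 at -0.17, Hscb at -0.091, Isca1 at -0.065, Isca2 at -0.16 and Iba57 at -0.18, against -0.38 for Iscu, -0.32 for Lyrm4 and 0.24 for Glrx5. By TPM rescaled over protein-coding genes it was -0.10, with Nfs1 at -0.11, Hscb at -0.031, Isca1 at -0.0054, Isca2 at -0.10 and Iba57 at -0.12, against -0.32 for Iscu, -0.26 for Lyrm4 and 0.30 for Glrx5. On these scales the median of expressed protein-coding genes was itself at -0.26 and -0.20, and the cause was not tested. Count alternatives kept every member's direction, and 5 or 6 members had an adjusted p under 0.05 alone. No paired analysis was possible because the labels give 1 group only. With 2 libraries of 1 condition, SDs rest on 2 values. For Lyrm4 and Isca2 the exact intervals by TMM-scaled counts include 0 but no ratio of 1.5-fold. They hold counting error only, so they cannot exclude such a ratio once other spread is counted.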

Other observations

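Assembly in the cytosol, which extends the mitochondrial process to cytosolic and nuclear proteins, was expressed throughout: all 11 genes of that list were at or above 1 TPM in both libraries, with a median of 8.17 TPM over the library means. The highest was Bola2, the partner of the cytosolic glutaredoxin, with 13.4 TPM in replicate 2 and 24.9 TPM in replicate 1. The lowest was Narfl, a hydrogenase-like assembly factor, with 3.47 TPM in replicate 2 and 3.23 TPM in replicate 1. None of the 11 was called by the exact binomial test at an adjusted p under 0.05 and 2-fold, 10 had an unadjusted p under 0.05, as did 9866 of all 15275 genes tested, and by adjusted p alone 3 were higher and 6 lower in replicate 2 by TMM-scaled counts, against 31.5% and 30.5% of all genes. Glrx5 was at 3.42 ± 0.904 times the TPM of Glrx3, the glutaredoxin of the cytosol (SD, n = 2), a gene named after its value was seen.

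Of 20 cytosolic and nuclear proteins that carry a cluster, 16 were at or above 1 TPM in both libraries. The highest was Pold1, the catalytic subunit of DNA polymerase delta, with 11.7 TPM in replicate 2 and 18.7 TPM in replicate 1, while Dpyd, of pyrimidine breakdown, had 0 counts in both libraries. The interferon-induced gene Rsad2 was the only one called, against 6.49% of all genes tested, with 0.30 TPM in replicate 2 and 0.17 TPM in replicate 1, from 435 estimated counts in replicate 2 and 149 in replicate 1, and a log2 ratio of 1.09. Of the 10 other LYR proteins, the family of Lyrm4, 6 were at or above 1 TPM in both libraries. Their range took in both sides of Lyrm4, from Ndufb9, a subunit of complex I, with 99.6 TPM in replicate 2 and 121 TPM in replicate 1, to Sdhaf1, an assembly factor of complex II, with 0.45 TPM in replicate 2 and 0.71 TPM in replicate 1.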
